A study of Mus musculus with 2 samples.

Results

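The genes described here encode 10 inhibitory and costimulatory receptors that regulatory T (Treg) cells carry on their surface, namely Ctla4, Icos, Tnfrsf18, Tnfrsf4, Tnfrsf9, Tnfrsf1b, Lag3, Tigit, Pdcd1 and Havcr2. They were chosen by gene symbol, and all 10 were found among the 20938 genes measured. RNA-seq was performed on Treg cells that had been magnetically isolated from the spleen on day 7 after islet transplantation, with 1 library from littermate controls and 1 library from Foxp3-Mettl14f/+ cKO mice. The mice were on a C57BL/6J background, had been made diabetic with streptozotocin, received BALB/c islets and were given no anti-CD45RB or anti-CD40L antibodies. In the cKO mice Cre recombinase under the Foxp3 promoter deletes 1 floxed allele of Mettl14, which encodes a subunit of the m6A methyltransferase complex, so the deletion is heterozygous and limited to cells that express Foxp3. The methods describe littermate controls as Mettl14f/f, whereas the sample labels call the control wild type and give the genotype of the other library as a knockdown of Foxp3. The sources used here do not state how many mice went into each library.

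Treg cells restrain other T cells in part through receptors of the CD28 family. CTLA-4 takes CD80 and CD86 away from CD28, and ICOS, its neighbour in the genome, binds ICOS ligand and promotes survival and IL-10 production of effector Treg cells. GITR, OX40, 4-1BB and TNFR2, encoded by Tnfrsf18, Tnfrsf4, Tnfrsf9 and Tnfrsf1b, are members of the TNF receptor superfamily that recruit TRAF adaptors and activate NF-kappaB. LAG-3 binds MHC class II, TIGIT binds the poliovirus receptor CD155, PD-1 binds PD-L1 and PD-L2, and TIM-3, encoded by Havcr2, binds galectin-9 among other ligands. These inhibitory receptors are known from activated and chronically stimulated T cells as well as from Treg cells.

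The deposited value of a gene, called its level here, is its read count divided by 1 size factor for the library. The libraries held 20239325 reads in the control and 18327535 in the cKO, and each receptor had at least 145 reads in either library. With 1 library per group there is no spread between replicates, no test of the genotype is possible, and the 95% intervals below cover counting error only. Mettl14 itself had 948 control and 652 cKO reads, a log2 change of -0.31 (95% interval -0.45 to -0.16). Relative to the reads of T cell core genes it did not differ beyond counting error, with 12.9 reads per 1000 core reads in both libraries (log2 interval -0.15 to 0.15). As a total over the gene, this value does not measure the floxed exons separately. Of the defining Treg genes, Foxp3 had 1547 and 1361 reads, Il2ra 802 and 1092, and Cd4 8371 and 4658. Both libraries also held transcripts of other cells, since 13 granulocyte markers summed to 270864 and 312728 reads and 15 T cell core genes to 73275 and 50402 reads. By flow cytometry the study found most of its isolated cells to be Foxp3+ Treg cells, and sums of marker reads do not measure cell shares. In bulk RNA, fewer cells of a type and less RNA per cell cannot be told apart.

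The receptors moved in both directions. Tnfrsf1b was higher in the cKO library by more than 1.5-fold, Lag3, Pdcd1 and Tnfrsf4 were lower by more than 1.5-fold, and the other 6 stayed inside that fold. Among all 16659 genes whose mean level reached 1, 17.2% were higher and 24.2% lower in the cKO library by 1.5-fold or more. Many of those genes had few reads. For the 9626 genes whose mean level reached 200, as that of all 10 receptors did, the shares were 11.1% and 7.56%. Against these shares stand 1 of 10 receptors higher and 3 of 10 lower, and no test was made over the receptors as a set. The median log2 change of the receptors was -0.10, beside -0.04 for all genes tested. On the reads alone, a two-sided exact binomial test that compares the libraries and not the genotypes called the same 4 receptors at an adjusted p under 0.1 and 1.5-fold, with 14.7% of 14863 genes called higher and 17.4% called lower. When edgeR's exact test was given a coefficient of variation of 0.4 between animals, an assumption, 0 receptors were called and 0 had an unadjusted p under 0.05, while 1.57% of genes were called higher and 3.83% lower.

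**Figure D1:**
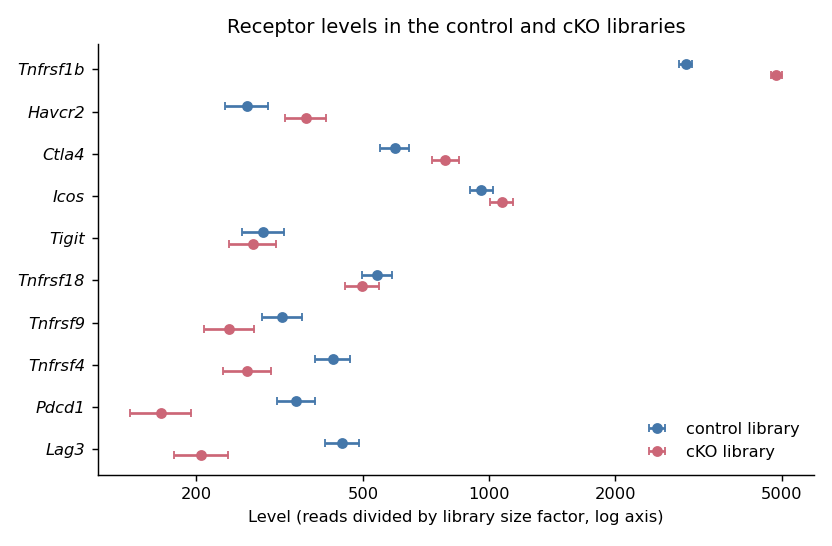
Level of each receptor (reads divided by the size factor of the library, log axis) in the control and cKO libraries. Points are the 2 libraries and bars are exact 95% Poisson intervals of the counts. The bars lie apart for Tnfrsf1b, Ctla4, Havcr2, Tnfrsf9, Tnfrsf4, Pdcd1 and Lag3, and overlap for Icos, Tigit and Tnfrsf18.

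Among the TNF receptor superfamily genes, Tnfrsf1b stood on its own. This gene encodes TNFR2, the TNF receptor that supports expansion of Treg cells, and spans bases 145213463 to 145246870 of chromosome 4 (GRCm38, minus strand). Its reads numbered 3050 in the control and 4270 in the cKO, the most of any receptor in either library. Levels of 2951 and 4856 put the cKO 1.65-fold above the control, a log2 change of 0.72 (95% interval 0.65 to 0.79). Tnfrsf1b alone took 41.3% of all receptor reads in the control library (exact Clopper-Pearson interval 40.2% to 42.5%) but 55.6% in the cKO (54.5% to 56.8%). Because of it the summed level of the receptors changed by 0.29 on the log2 scale, whereas the other 9 together changed by -0.11 (95% interval -0.18 to -0.05).

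Tnfrsf4 went the other way. It encodes OX40, a costimulatory receptor induced by T cell receptor signals, and its 438 control and 233 cKO reads gave levels of 424 and 265. That is 1.60-fold lower in the cKO, a log2 change of -0.68 (95% interval -0.91 to -0.45). Tnfrsf9, which encodes 4-1BB and marks recently activated Treg cells, had 332 and 211 reads, levels of 321 and 240, and a change of -0.42 (-0.68 to -0.17), below 0 but under 1.5-fold. For Tnfrsf18, which encodes GITR, the 559 and 438 reads gave levels of 541 and 498, and its change of -0.12 had an interval of -0.30 to 0.06 that includes 0. Tnfrsf4 and Tnfrsf18 lie on the same strand of chromosome 4, 9.6 kb apart, and the log2 changes of these neighbours were -0.68 and -0.12. In its exons Tnfrsf18 shares 414 bases with an antisense gene that is not among the genes measured, and the sources used here do not say whether counting used strand.

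Ctla4 and Icos, neighbours on chromosome 1, had higher values in the cKO library. Ctla4 (chromosome 1, bases 60887000 to 60915832, plus strand) had 615 control and 692 cKO reads. Its level was 595 and 787, a log2 change of 0.40 (95% interval 0.25 to 0.56), which is 1.32-fold and so under the 1.5-fold threshold. Icos, 62.1 kb downstream on the same strand, had 991 and 943 reads and levels of 959 and 1072, and changed by 0.16 (0.03 to 0.29). Cd28, the costimulatory receptor encoded 113.6 kb upstream of Ctla4, had 3077 and 2204 reads and a change of -0.25 (-0.33 to -0.17). Within this cluster Ctla4 and Icos were thus higher and Cd28 lower on the deposited scale, although Cd28 was 0.06 higher when set against the T cell core genes (-0.02 to 0.14).

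Lag3 and Pdcd1 had the lowest log2 changes of the receptors. Lag3 (chromosome 6, bases 124904361 to 124911705, minus strand) had 462 control reads against 181 cKO reads, with levels of 447 and 206. This was 2.17-fold lower in the cKO, a log2 change of -1.11 (95% interval -1.38 to -0.87). Its neighbour on the same strand, Cd4, which encodes the related coreceptor and lies 16.1 kb away, changed by -0.61 (-0.66 to -0.56). Pdcd1, which encodes PD-1, spans bases 94038305 to 94052553 of chromosome 1 on the minus strand and had 358 control and 145 cKO reads. Its levels of 346 and 165 were 2.10-fold apart, a log2 change of -1.07 (-1.36 to -0.79). These 2 genes were at percentiles 17.1 and 17.5 of the changes of all genes tested, many of which had few reads. Among genes whose mean level reached 200, 7.56% were lower by 1.5-fold or more.

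The other 2 inhibitory receptors were not lower beyond counting error. Tigit, which encodes a receptor that competes with CD226 for CD155, had 299 and 240 reads, levels of 289 and 273, and a change of -0.08 (95% interval -0.34 to 0.17). Havcr2 had 273 control reads, the fewest of the receptors there, and 321 cKO reads. With levels of 264 and 365 it was 1.38-fold higher in the cKO library, a change of 0.47 (0.23 to 0.71). Taking the inhibitory receptors Ctla4, Lag3, Tigit, Pdcd1 and Havcr2 as a group, 0 were past 1.5-fold upward and 2 downward, and their summed level changed by -0.11 (-0.21 to -0.02). In the costimulatory group, formed by Icos and the TNF receptor superfamily genes, 1 was past 1.5-fold in each direction and the summed level changed by 0.42 (0.36 to 0.47). That sum rests on Tnfrsf1b, since without it the other 4 changed by -0.11 (-0.20 to -0.02), and the median change of the costimulatory group was -0.12 with 2 of 5 genes above 0.

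**Figure D2:**
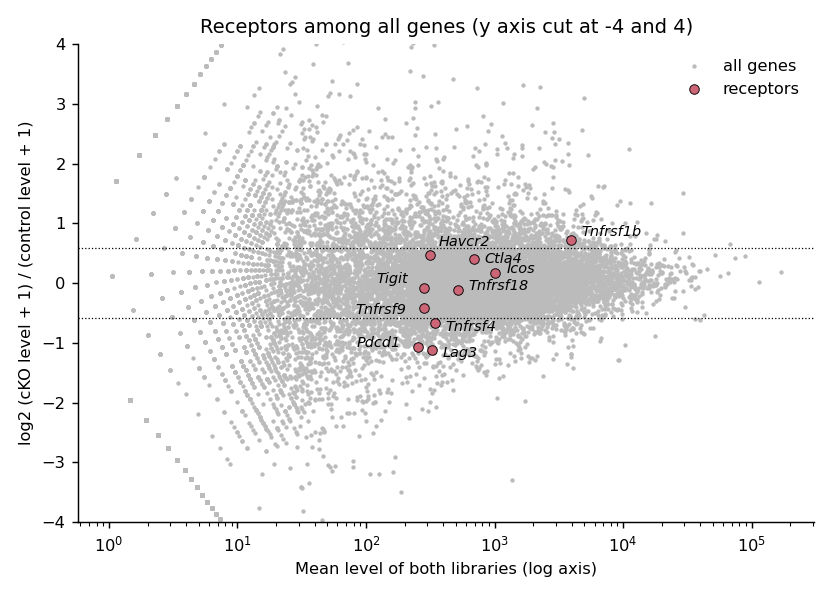
Log2 change in the cKO library (with 1 added to each level) against the mean level of both libraries (log axis) for all 16659 genes tested in grey and the receptors in red. Dotted lines mark 1.5-fold. The receptors spread from -1.11 for Lag3 to 0.72 for Tnfrsf1b around the band of other genes of like level.

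The deposited scale rests on the authors' size factors, so the receptors were also set against Foxp3 and against T cell core genes. Such ratios need no library scaling, and of the core genes Tcf7 and Cd4 had the most reads. The study reported less FOXP3 protein by western blot in Treg cells of the cKO mice, so Foxp3 may not be a fixed reference. It does not state that the mice of that blot had received islets. On the deposited scale Foxp3 RNA had a log2 change of 0.05 (95% interval -0.06 to 0.15). For every 100 Foxp3 reads there were 29.9 Lag3 reads in the control against 13.3 in the cKO, a log2 difference of -1.17 (95% interval -1.44 to -0.89). Pdcd1 had 23.1 and 10.7 reads per 100 Foxp3 reads, and Tnfrsf4 28.3 and 17.1. Ctla4 went from 39.8 to 50.8 per 100 Foxp3 reads, a difference of 0.36 (0.16 to 0.55), and Tnfrsf1b from 197 to 314. Relative to Foxp3 the interval lay above 0 for 3 receptors (Ctla4, Tnfrsf1b and Havcr2) and below 0 for 4 (Lag3, Pdcd1, Tnfrsf4 and Tnfrsf9). Of the 9625 genes other than Foxp3 whose mean level reached 200, receptors included, 31.0% had such an interval above 0 and 34.4% below 0, so counts of this size were common at this depth.

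The T cell core genes were lower in the cKO library as a list, with 14 of 15 below 0 and a median log2 change of -0.32. Setting their summed reads equal moved the median of all genes by 0.30. On that scale Lag3 changed by -0.81 (95% interval -1.07 to -0.56) and Pdcd1 by -0.76 (-1.05 to -0.48), both still past 1.5-fold. Tnfrsf4 was at -0.37 (-0.61 to -0.14) and no longer past it. Ctla4 at 0.71 and Havcr2 at 0.77 came past 1.5-fold beside Tnfrsf1b at 1.02. Tigit at 0.22 and Tnfrsf18 at 0.19 changed sign, since their deposited values were close to 0. Under all 5 other scalings tried, the values of Lag3, Pdcd1, Tnfrsf4 and Tnfrsf9 stayed below 0. Those of Tnfrsf1b, Ctla4, Havcr2 and Icos stayed above 0. Not all lay beyond counting error, since the interval for Tnfrsf9 relative to the core genes was -0.37 to 0.14. For Icos relative to Foxp3 it was -0.06 to 0.28. The sign for Tigit and Tnfrsf18 depended on the scaling, and relative to the core genes Tnfrsf18 had an interval of 0.003 to 0.37.

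**Figure D3:**
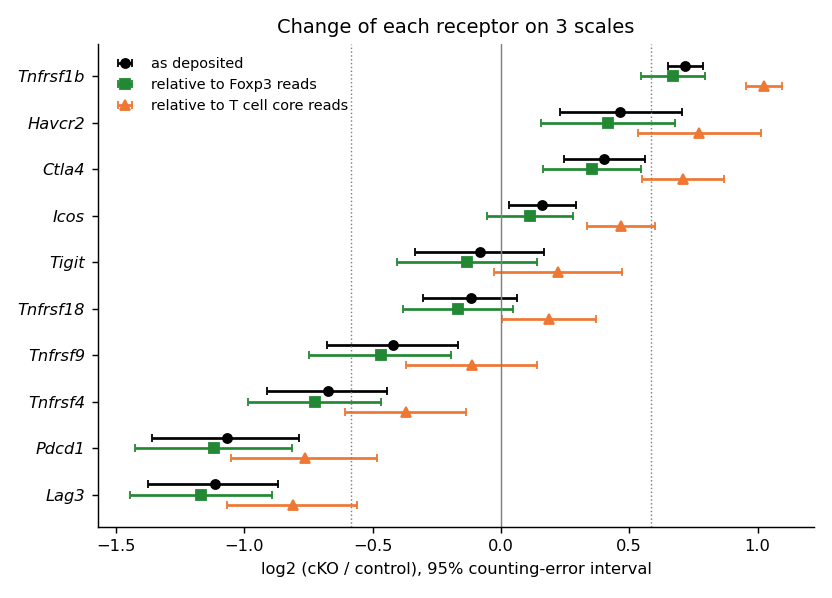
Log2 change of each receptor in the cKO library as deposited (circles), relative to Foxp3 reads (squares) and relative to the summed reads of 15 T cell core genes (triangles). Bars are exact 95% counting-error intervals and dotted lines mark 1.5-fold. Lag3 and Pdcd1 are past 1.5-fold on the lower side, and Tnfrsf1b on the higher side, on each of these scales.

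A comparison of receptor with receptor does not depend on the scaling either. Intervals were taken at 95% for each pair and again at 95% over all 45 pairs together. Lag3 and Pdcd1 differed by -0.05 (95% interval -0.43 to 0.34), and Ctla4 and Havcr2 by -0.06 (-0.35 to 0.22), so neither of these pairs was separated at this depth. Tnfrsf4 was 0.44 above Lag3 (0.09 to 0.79) and 0.39 above Pdcd1 (0.02 to 0.77), differences that held for the single pair but not over all pairs.

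Levels between genes were compared only per length, as reads per kilobase of exon per 1000000 reads of the library. Tnfrsf1b was first in both libraries, at 39.5 in the control and 61.0 in the cKO. In the control library Tnfrsf18 followed at 18.1, Tigit at 16.1, Tnfrsf4 at 15.9, Icos at 14.3 and Ctla4 at 13.0, and neighbours within this run overlapped in counting error. Lag3 at 10.8 and Pdcd1 at 9.16 overlapped each other, as did Tnfrsf9 at 6.03 and Havcr2 at 4.96 below them. In the cKO library Ctla4 at 16.2, Tnfrsf18 at 15.7, Icos at 15.0 and Tigit at 14.2 formed an overlapping group, with Tnfrsf4 below them at 9.31. Havcr2 at 6.44 came next, above Lag3 at 4.68, Tnfrsf9 at 4.23 and Pdcd1 at 4.10, which overlapped. Ctla4 was thus the sixth in the control and the second in the cKO library. With the length of the longest transcript it was the fifth and the third. Per kilobase of exon, its control interval of 12.0 to 14.1 overlapped with that of Icos only. In the cKO library it overlapped with those of Tnfrsf18, Icos and Tigit. Pdcd1 was the eighth and the last with either length, although its last place overlapped with those of Tnfrsf9 and Lag3.

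**Figure D4:**
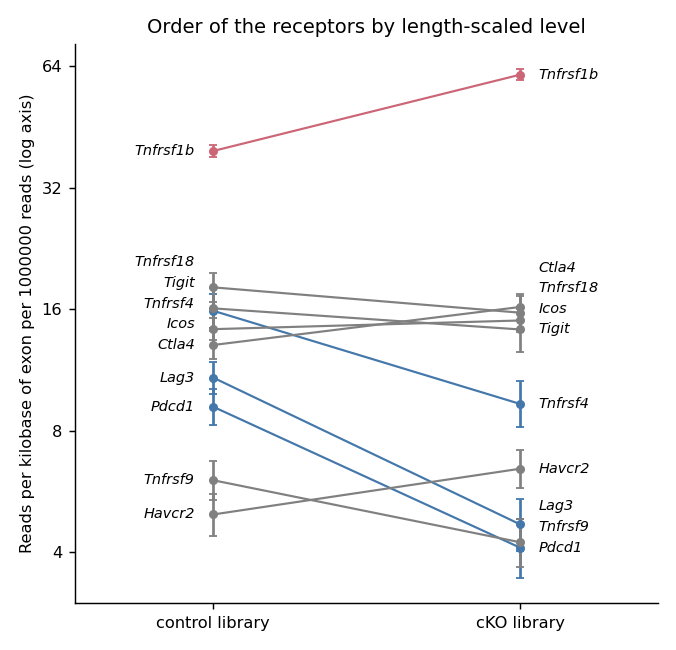
Reads per kilobase of exon per 1000000 reads (log axis) of each receptor in the control library (left) and the cKO library (right), with exact 95% Poisson intervals. Red marks the receptor at least 1.5-fold higher, blue those at least 1.5-fold lower and grey the rest. Tnfrsf1b stays on top at 39.5 and 61.0, while Lag3 and Pdcd1 drop from 10.8 and 9.16 to 4.68 and 4.10.

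Since METTL14 acts in the complex that methylates adenosine in mRNA, mostly within a motif of which GGACT is the best known form, the letters GGACT were counted in 1 coding transcript per gene (GENCODE vM21). m6A was not measured in these libraries, and a match says only that the letters are there. Of the receptors, 9 had at least 1 match, as did 90.7% of 16302 genes, and the median was 1.46 matches per kilobase beside 1.05 for those genes. Lag3 had 5 matches in its transcript and Pdcd1 4, or 2.50 and 2.07 per kilobase. Ctla4, which was higher in the cKO library, also had 5 matches, at 2.59 per kilobase. Tnfrsf1b had 4 matches, at 1.05 per kilobase, and Icos had 0. The Icos transcript used was 810 bases long with the coding sequence ending at base 704, whereas the longest annotated one has 3241 bases, so most of its 3′ UTR was not searched. A match in the 3′ UTR was found for 50% of the receptors and 56.2% of the genes. For the 4 receptors past 1.5-fold, the match closest to the stop codon was in the coding sequence within a single exon. Its offset from the end of the stop codon was -691 bases for Lag3, -183 for Pdcd1, -235 for Tnfrsf4 and -593 for Tnfrsf1b. These matches are shown 5′ to 3′ along the mRNA, with GGACT in capitals.
Lag3, minus strand, chr6:124908529-124908549: tgccaagtGGACTcctcctgg
Pdcd1, minus strand, chr1:94039476-94039496: gaggagctGGACTtccaggga
Tnfrsf4, plus strand, chr4:156016022-156016042: ctggcccaGGACTtctgagtt
Tnfrsf1b, minus strand, chr4:145223527-145223547: tgatgttaGGACTggtgaact

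RefSeq promoter windows on GRCm38.p6 were found for 8 of the 10 receptors, and those of Tnfrsf1b and Pdcd1, which were past 1.5-fold in opposite directions, are shown for the 250 bases before the transcription start. Capitals mark GGGCGG, the core of an Sp1 site, and GGAAA, the core bound by NFAT factors, on either strand. Windows of this length held GGGCGG in 32.7% and GGAAA in 55.6% of 32851 promoters. The Tnfrsf1b window had 2 matches to GGGCGG and 0 to GGAAA. The Pdcd1 window had 1 match to GGGCGG and 2 to GGAAA, which stand side by side on the opposite strand. The TATA box letters TATAAA, searched on both strands too, had 0 matches in these windows and were in 12.4% of all promoters. The AP-1 motif TGANTCA likewise had 0 matches, against a share of 6.75%. The forkhead motif TGTTTAC had 0 matches, against a share of 3.17%.
Tnfrsf1b, minus strand, chr4:145246871-145247120: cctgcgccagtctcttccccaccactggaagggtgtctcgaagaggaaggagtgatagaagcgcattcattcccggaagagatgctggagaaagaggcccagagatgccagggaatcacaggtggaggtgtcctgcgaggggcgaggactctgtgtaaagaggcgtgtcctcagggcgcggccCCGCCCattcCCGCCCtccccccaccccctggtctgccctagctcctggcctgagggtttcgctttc
Pdcd1, minus strand, chr1:94052554-94052803: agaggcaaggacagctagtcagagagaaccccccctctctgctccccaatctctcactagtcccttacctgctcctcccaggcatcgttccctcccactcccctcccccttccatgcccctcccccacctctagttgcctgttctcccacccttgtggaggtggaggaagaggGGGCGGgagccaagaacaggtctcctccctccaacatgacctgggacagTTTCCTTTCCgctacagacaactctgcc

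Of 20 further inhibitory and costimulatory receptor genes, 3 were higher and 2 lower in the cKO library by 1.5-fold or more, with a median log2 change of 0.15 (0.46 on the scale of the T cell core genes). These counts, and those of the lists that follow, stand beside the 17.2% higher and 24.2% lower of all genes tested. Among genes whose mean level reached 200, the shares were 11.1% higher and 7.56% lower. Btla, which encodes an inhibitory receptor carried by both B and T cells, had 1831 and 4641 reads and was 1.57 higher on the log2 scale. Cd244a was 0.96 higher and Havcr1 1.62 higher, the latter from 23 and 62 reads. Tnfrsf25, the death receptor DR3 that also promotes Treg cell expansion, had 343 and 169 reads and a change of -0.78 (95% interval -1.06 to -0.52). Lair1, a collagen receptor, changed by -0.63. The receptors of this list with the most reads, Vsir (VISTA) and Cd2, changed by 0.42 and 0.08.

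Of 21 genes for signaling and trafficking of these receptors, 3 were at least 1.5-fold higher and 1 lower, with a median of 0.16 (0.46 on the T cell core scale). Birc3, an inhibitor of apoptosis protein that acts with TRAF adaptors at TNF receptors, had 1706 and 2921 reads and was 1.01 higher (95% interval 0.92 to 1.10). Map3k14, the kinase NIK of the alternative NF-kappaB pathway, was 0.74 higher, and Inpp5d, the phosphatase SHIP-1, was 0.76 higher. Trat1, an adaptor known to promote transport of CTLA-4 to the cell surface, had 905 and 431 reads and changed by -0.84 (-1.01 to -0.67). The genes of the list with the most reads, Pik3cd and Ptpn6, changed by 0.34 and 0.45.

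Among 33 genes of effector Treg cells and of the transcription factors behind activation, 6 were at least 1.5-fold higher and 4 lower, with a median of 0.26 (0.57 on the T cell core scale). Nr4a1, an early gene of T cell receptor signaling, had 982 and 3400 reads and was 2.02 higher. Lrrc32, which displays latent TGF-beta, was 1.35 higher, Ebi3 0.98, Rel 0.79, Entpd1 0.78 and Il2ra 0.68 higher. Tox2, a factor linked to PD-1 expression and T cell exhaustion, had 186 and 75 reads and changed by -1.07 (95% interval -1.48 to -0.68). Il10 changed by -0.81 from 46 and 22 reads, and Ikzf4 by -0.71. The genes of this list with the most reads, Nfatc1 and Nfkb1, changed by 0.57 and 0.16.

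Of the ligand genes, 18 of 19 passed the minimum mean level, with 9 at least 1.5-fold higher, 5 lower and a median of 0.33. That median depends on the filter, at 0 without a minimum level and 0.69 with a minimum of 10, and was 0.64 on the T cell core scale. Ligands of CTLA-4, ICOS and PD-1 were on the higher side. Icosl had 868 and 2170 reads and was 1.55 higher, as were Cd86 at 1.55, Cd80 at 1.43, Pdcd1lg2 at 0.95 and Cd274 at 0.67. Ceacam1 and Lgals3, ligands named for TIM-3 and LAG-3, were 0.95 and 0.71 higher, and Lta, a ligand of TNFR2, was 1.12 higher. Tnf, which encodes TNF itself, the other ligand of TNFR2, had 496 and 383 reads and a change of -0.14 (95% interval -0.34 to 0.06). The TNF superfamily ligands Tnfsf18 and Tnfsf4, which bind GITR and OX40, had only 27 and 8 reads and 11 and 5 reads, and Tnfsf18 changed by -1.43 (95% interval -2.87 to -0.34). Nectin2 changed by -1.03 and Hmgb1, with the most reads of the list, by -0.59. Clec4g with 8 and 16 reads and Fgl1 with 4 and 0 were too shallow for a direction, although both are in the counts above, and Lgals9, second in reads, changed by -0.01.

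**Figure D5:**
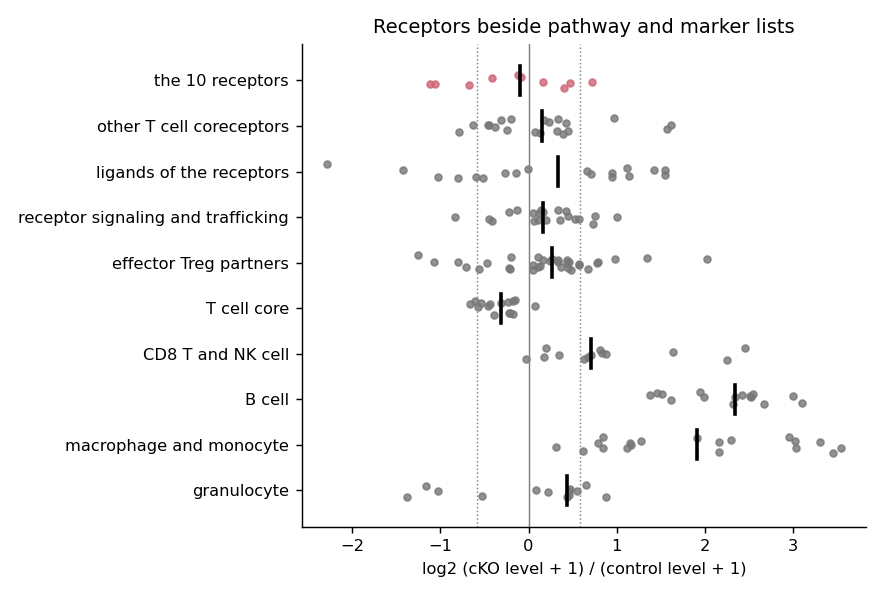
Log2 change in the cKO library (with 1 added to each level) of each gene in the receptor, pathway and cell marker lists. Points are genes, black bars are list medians and dotted lines mark 1.5-fold. The receptors have a median of -0.10, the T cell core genes -0.32, and the B cell and macrophage markers 2.34 and 1.91.

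Markers of several other cell types were higher in the cKO library too. All 15 B cell markers found were at least 1.5-fold higher, with a median of 2.34 and a summed level of 35231 in the control and 122483 in the cKO library, led in reads by Cd74 and H2-Ab1. Of 19 macrophage and monocyte markers 18 were at least 1.5-fold higher, with a median of 1.91 and summed levels of 33899 and 69368, led by Lyz2 and Apoe. The 13 granulocyte markers had a median of 0.44 and summed levels of 262031 and 355622, with S100a9 and Ngp foremost. Only 2 of these 13 were at least 1.5-fold higher, and 3 were lower, namely Mpo at -1.03, Prtn3 at -1.17 and Ctsg at -1.38, which encode proteins of primary granules. The 13 markers of CD8 T and NK cells had a median of 0.71 and summed levels of 8526 and 16049, led by Ccl5 and Cd8a. The 11 dendritic cell markers had a median of 0.13 and summed levels of 5160 and 5994, with Ccr7 and Itgax foremost. The 5 plasma cell markers, with Jchain and Xbp1 foremost, had a median of 0.18 and summed levels of 39485 and 41868, and the 13 erythroid markers, led by Tfrc and Hba-a2, had a median of -1.12 and summed levels of 38424 and 24107. Of these 13 erythroid genes 4 were above 0, among them Hbb-bs with 3 control and 2626 cKO reads (log2 change 9.58, 95% interval 8.46 to 12.29). Hbb-bt, nearly identical to it in sequence, had 776 and 634 reads. How reads were divided between them is uncertain, and the source of the Hbb-bs difference was not tested. None of these markers was at 0 in either library. In these sums Cd74 had levels of 15082 and 43055, Lyz2 21002 and 37660, and Ccr7 2316 and 2244. Such genes are not exclusive to 1 cell type, so the sums do not measure cell numbers. TNFR2 and TIM-3 are known from myeloid cells and BTLA from B cells. Tnfrsf1b, Havcr2 and Btla were higher in the library that also held more transcripts of such cells, whose part in the result was not tested. The ligand, signaling and effector lists were read in the same mixed RNA. Changes such as those of Cd86, Birc3, Entpd1 and Nr4a1 therefore cannot be assigned to Treg cells. Lag3, Pdcd1 and Tnfrsf4 were lower in the library with lower T cell core genes, and Lag3 and Pdcd1 remained past 1.5-fold lower relative to those genes. The core genes are not limited to Treg cells, and Cd8a had 449 control and 1824 cKO reads, so this ratio does not isolate Treg cells. The part of cell composition in these values was not tested.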

How the data were processed

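Reads were aligned by the authors to the mouse genome (mm10) with TopHat. The submitters' processing notes also name bcl2fastq 2.0, STAR, StringTie and DESeq2 without giving their roles, and the counting tool, the annotation and strand use are not given in the sources used here. The deposited values are a signal, counts of reads over a size factor of the library, and 100% of them were whole multiples of the smallest value within 0.001, so reads were recovered by division. Changes are log2 ratios of cKO to control after adding 1 to both levels, for genes whose mean level reached 1. The 1.5-fold threshold is that of the study. Intervals at 95% were exact Clopper-Pearson, Poisson or conditional odds ratio intervals. They cover only counting error, because each group has 1 library. No molecular identifiers mark which reads are separate molecules, so the counting error itself may be wider than shown. Reads were recovered for an exact binomial test, which called 4766 genes at an adjusted p under 0.1 and 1.5-fold, and for edgeR's exact test, which called 803, each among genes with at least 10 reads. Of the gene symbols, 20516 matched GENCODE vM21 (GRCm38), which gave positions and exon lengths. The receptors and lists were chosen with earlier results of these data known. In the lists, genes past 1.5-fold and the 2 with the most reads are named, and for cell markers the 2 with the most reads in the cKO library. A gene of the lists past 1.5-fold is not reported here. Cd28 and Cd4, as genomic neighbours, and Tnf, Mpo, Prtn3, Ctsg, Hbb-bs and Hbb-bt were named after their values were seen. Cd2, Cd5 and Cd6 are in both the T cell core list and that of other T cell coreceptors. Of the marker lists, 3 T cell core and 2 B cell genes were not found. Alternatives were other pseudocounts, filters, fold thresholds, scalings and transcript lengths. Steps were tested on simulated data with Poisson reads. Those hold no variation between animals, so they do not show how the tests behave on real libraries. Python 3.11.15, scipy 1.17.1, R 4.3.3 and edgeR 4.0.16 were used.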

Additional observations from a re-analysis of the deposited data

How the results depend on the processing

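No paired analysis was possible because each group has 1 library. With T cell core genes as the scaling, the number of receptors at least 1.5-fold higher went from 1 to 3, and their median from -0.10 to 0.20. The list medians moved to 0.46 for the other T cell coreceptors and for signaling and trafficking, 0.57 for the effector Treg genes and 0.64 for the ligands. The ligand median was 0 without a filter, 0.69 with a minimum mean level of 10 and 0.67 among genes above 0 in both libraries. With a fold threshold of 2, 0 receptors were higher and 2 lower, and with edgeR's exact test at an assumed variation of 0.4, 0 and 0 were called. Use of the longest transcript changed 8 places in the order of the receptors over both libraries. The minimum mean level of 200 and the median without Tnfrsf1b, -0.12, were added after seeing the data. Pseudocounts of 0.1 or 5 and scaling by TMM, median of ratios, total reads or Foxp3 left 1 receptor higher and 3 lower by 1.5-fold, while the receptor median ranged down to -0.19 and the coreceptor and signaling medians to 0.06 and 0.07, all with total reads. Depth limits the comparison of Lag3 with Pdcd1 and of Tnfrsf4 with Tnfrsf9.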
